A study of Mus musculus with 4 samples.

Results

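The genes of the cytoplasmic ribosomal proteins were examined in endothelial cells, which form the inner lining of vessels, after targeting of Zeb1, a zinc-finger transcriptional repressor. They were taken as the protein-coding genes whose symbols follow the naming of large-subunit proteins (Rpl, Rplp) or small-subunit proteins (Rps), which gave 82 of the 54446 genes measured. Of these, 51 belong to the large and 31 to the small subunit.

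The 4 RNA-seq libraries were each made from 100 endothelial cells sorted from C57BL/6 mouse retinas at postnatal day 16. Of the libraries, 2 came from mice titled Zeb1-CKO, which the genotype field calls a Zeb1 knockdown, and 2 from control mice. No source used here gives the Cre driver, the targeted exons or the number of animals behind each library. The p-values below thus speak only of the spread among these libraries, and that spread may be technical. Expression is given as FPKM, fragments per kilobase of transcript, scaled by the library's total. Library sums were 283814 to 291486 FPKM in the Zeb1-CKO libraries and 293840 to 294276 FPKM in the controls. The steps between low FPKM values put the depth of control 2 at 0.512 of that of Zeb1-CKO 1, the deepest library, with the others at 0.766 or more. Zeb1 itself had 8.66 and 7.07 FPKM in the Zeb1-CKO libraries and 10.7 and 11.1 FPKM in the controls, a log2 fold change of -0.43 ± 0.15 (SE) that did not pass limma's test (adjusted p = 0.235).

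The cytoplasmic ribosome joins a large and a small subunit, each built on ribosomal RNA with 1 copy of nearly every ribosomal protein. The small subunit reads the messenger RNA and the large subunit joins the amino acids. Most mammalian ribosomal protein messenger RNAs start with a run of pyrimidines, the TOP motif, through which mTOR signalling controls their translation. The mouse genome also carries many processed pseudogenes of these genes, made by reverse transcription of their messenger RNAs, and short reads from a gene and from such a copy can be hard to tell apart.

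Ribosomal protein messages were abundant in the sorted cells. Their FPKM summed to 13327 and 12418 in the Zeb1-CKO libraries, against 13645 and 15970 in the controls. These sums made up 4.70% and 4.26% of all FPKM in the Zeb1-CKO libraries and 4.64% and 5.43% in the controls. The summed FPKM was lower in both Zeb1-CKO libraries than in either control, but the shares of the library overlapped, and control 2 stood above control 1 by more than control 1 stood above Zeb1-CKO 1. In such bulk samples, fewer cells of a type and less RNA per cell cannot be told apart. In single genes, mean FPKM over the 4 libraries ran from 9.87 for Rpl29 to 979 for Rplp0 among the 79 members with a mean of at least 1 FPKM. At least 100 FPKM was reached by 44 members, and 8 stayed under 30 FPKM. The 6 most abundant members, Rplp0, Rplp1, Rpl4, Rpl36, Rpl32 and Rps2, held 27.3% and 26.5% of the members' FPKM in the Zeb1-CKO libraries and 26.8% and 26.2% in the controls. The order of levels was nearly the same in both genotypes (Spearman's rho of the group means 0.99 over 79 genes, a description across genes of the same libraries).

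The 3 members below 1 FPKM were all paralogs known for expression in other tissues. Rpl3l, a striated-muscle relative of Rpl3, had 0.511 and 0.254 FPKM in the Zeb1-CKO libraries and 0.951 and 0.408 FPKM in the controls. Rpl10l and Rpl39l, testis relatives of Rpl10 and Rpl39, stayed at or below 0.165 FPKM in every library. The levels of all 3 were thus near or at the bottom of the scale in both genotypes, and they were not fitted.

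Of the 79 fitted members, 1 passed limma's test as higher in Zeb1-CKO cells (adjusted p under 0.05 over 13651 genes), none passed as lower, and 78 did not pass. Over all fitted genes, 2.23% were called higher and 0.901% lower. Without adjustment, 3 members had p under 0.05 as higher and 7 as lower, against 10.5% and 7.35% of all fitted genes. The log2 fold change was negative for 64 of the 79 members, against 47.2% of all fitted genes and 56.8% of the 391 genes with at least 100 FPKM. Both Zeb1-CKO libraries lay below both controls for 35 members and above them for 4, against 22.3% and 27.1% of all fitted genes. The median log2 fold change of the members was -0.18, beside 0.02 over all fitted genes and -0.05 over the genes with at least 100 FPKM. The members thus mostly had small negative differences, none of which passed the test.

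**Figure D1:**
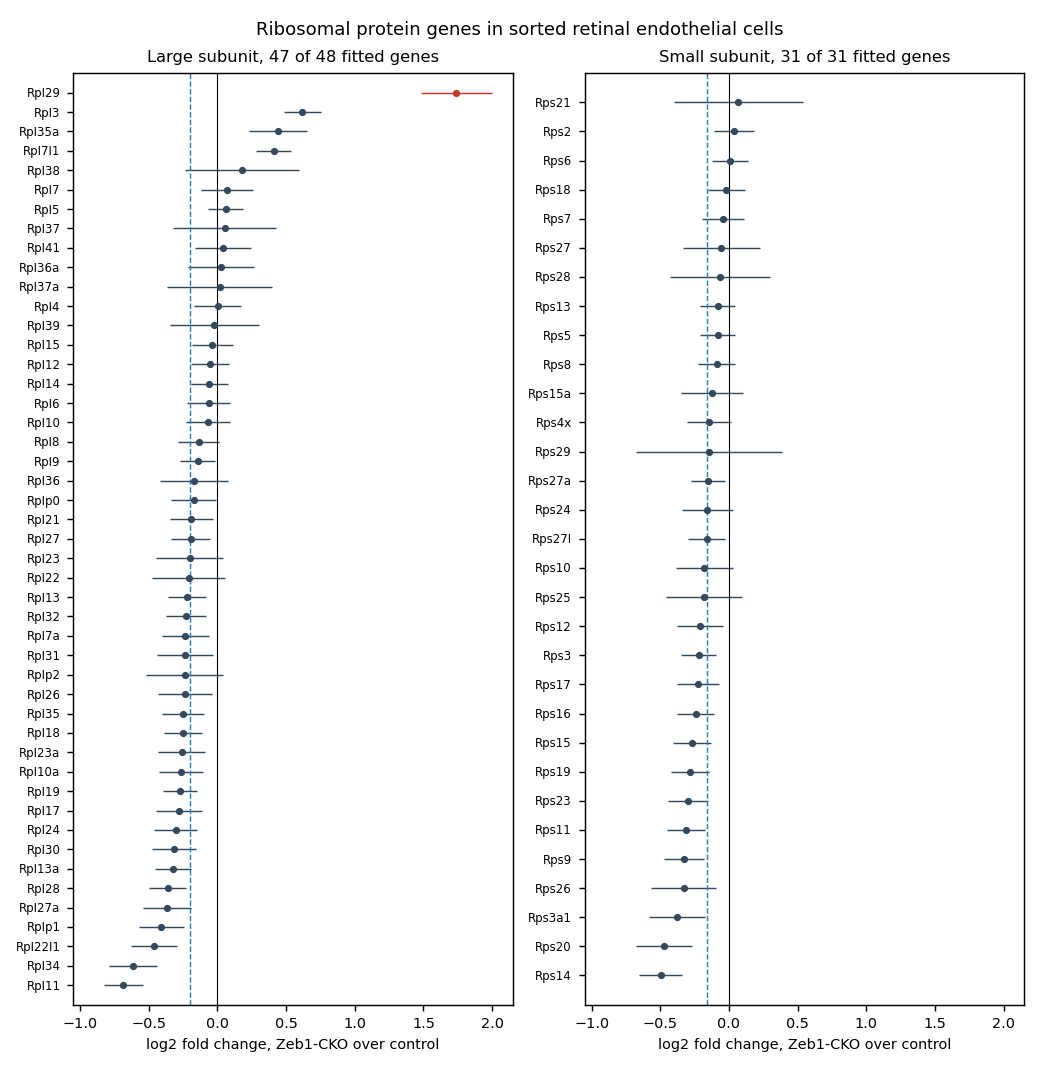
Log2 fold change of 78 of the 79 fitted ribosomal protein genes, Zeb1-CKO over control, as points with SE bars from limma, for the large subunit on the left and the small subunit on the right. The dashed line is the median of all fitted genes of the subunit, -0.20 for the large and -0.16 for the small subunit. Rpl29, in red, is the 1 called gene, at 1.74, and 63 of the 78 points lie below 0.

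The called gene was Rpl29, which encodes a large-subunit protein and lies on chromosome 9 at 106429454 to 106431568 (mm10, plus strand). It had 17.3 and 14.0 FPKM in the Zeb1-CKO libraries, against 2.90 and 5.30 FPKM in the controls. The genotypes did not overlap, and the log2 fold change was 1.74 ± 0.26 (SE, adjusted p = 0.0315). Rpl29 was also the fitted member with the lowest level. Its near-identical copies elsewhere in the genome, 32 in number, together had 89.1 and 81.9 FPKM in the Zeb1-CKO libraries and 94.1 and 83.5 FPKM in the controls. The copies thus carried 84.5% of the combined level in Zeb1-CKO cells and 95.6% in control cells. With the gene and its copies summed, the 4 libraries had 106 and 95.8 FPKM in Zeb1-CKO cells and 97.0 and 88.8 FPKM in control cells, and the log2 fold change was 0.12 ± 0.13 (SE, adjusted p = 0.697). The call for Rpl29 alone was also lost without either Zeb1-CKO library (adjusted p = 0.177 without Zeb1-CKO 1 and 0.139 without Zeb1-CKO 2).

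Copies of this kind were common among the members. A copy was taken as a gene whose transcript matched a member's transcript at 95% or more of the aligned bases, where the alignment covered 80% or more of the copy and 150 bases or more. There were 593 copies of 77 members, of which 575 were processed pseudogenes and 17 were typed as protein-coding. In the controls, 12 members had copies at least as high in sum as the member itself: Rpl3, Rpl12, Rpl21, Rpl23, Rpl29, Rpl34, Rpl35a, Rps7, Rps10, Rps12, Rps20 and Rps28. Of the 222 copies that were fitted, 5 were called higher and 7 lower in Zeb1-CKO cells, against 2.23% and 0.901% of all fitted genes. The FPKM of a copy need not be its own expression, since a few bases decide between it and its gene. Whether the reads came from the gene or the copy, and whether the mice of both genotypes carry the same bases there, was not tested. The following stretches of coding sequence show how little separates a gene from its copy. Each pair gives the same 40 bases, counted from the first base of the gene's start codon, and the capitals mark every base that differs, from GENCODE M21 transcripts.
Rpl3, bases 37 to 76: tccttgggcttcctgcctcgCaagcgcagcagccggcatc
Rpl3-ps1: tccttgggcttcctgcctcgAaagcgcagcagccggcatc
Rpl29, bases 52 to 91: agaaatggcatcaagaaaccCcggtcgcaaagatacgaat
Gm8210: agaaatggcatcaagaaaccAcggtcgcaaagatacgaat
Rpl34, bases 112 to 151: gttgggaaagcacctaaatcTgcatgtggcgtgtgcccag
Rpl34-ps1: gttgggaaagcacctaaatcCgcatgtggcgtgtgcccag
Rps7, bases 17 to 56: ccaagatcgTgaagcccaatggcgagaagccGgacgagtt
Gm6472: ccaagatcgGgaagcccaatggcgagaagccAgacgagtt
Rps3a1, bases 636 to 675: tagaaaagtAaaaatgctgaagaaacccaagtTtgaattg
Rps3a2: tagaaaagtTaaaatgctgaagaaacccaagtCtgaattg

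Over the whole alignment, Rpl3-ps1 differs from Rpl3 at 2 of 1210 bases, C57A and T786C, where the first letter is the gene's base, the number its position in the gene's coding sequence and the last letter the copy's base. Rpl34-ps1 differs from Rpl34 at 2 of 354 bases, T132C and C318G. Gm8210 on chromosome 1 and Gm13841 on chromosome 5 differ from Rpl29 at the same 3 coding positions, C72A, C300T and T423C. Gm6472 differs from Rps7 at 3 of 585 coding bases, and Rps3a2 from Rps3a1 at 4 of 792.

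Rpl3, whose protein reaches towards the site where peptide bonds form, stood opposite to its most abundant copy. The gene, on chromosome 15 at 80077791 to 80091868, had 178 and 160 FPKM in the Zeb1-CKO libraries and 107 and 113 FPKM in the controls, a log2 fold change of 0.62 ± 0.13 (SE, adjusted p = 0.0792). Rpl3-ps1, on the X chromosome, had 24.1 and 27.7 FPKM in the Zeb1-CKO libraries and 128 and 127 FPKM in the controls, and was called lower (log2 fold change -2.26, adjusted p = 0.00221). Summed over the gene and its 7 copies, the libraries had 208 and 194 FPKM in Zeb1-CKO cells and 243 and 252 FPKM in control cells, and the log2 fold change was -0.30 ± 0.13 (SE, adjusted p = 0.303).

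Rpl34, another large-subunit gene, showed the opposite pattern. The gene had 54.3 and 54.2 FPKM in the Zeb1-CKO libraries and 71.9 and 97.0 FPKM in the controls (log2 fold change -0.61 ± 0.18 (SE), adjusted p = 0.152). Rpl34-ps1, on chromosome 6, had 164 and 186 FPKM in the Zeb1-CKO libraries and 62.5 and 83.9 FPKM in the controls, and was called higher (log2 fold change 1.26, adjusted p = 0.0293). With 5 copies added, the log2 fold change was 0.49 ± 0.19 (SE, adjusted p = 0.270).

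In other members a copy differed more between genotypes than the gene did. Rps7, a small-subunit gene, had 223 and 179 FPKM in the Zeb1-CKO libraries and 203 and 209 FPKM in the controls. Its copy Gm6472, on the X chromosome, had 97.7 and 76.4 FPKM in the Zeb1-CKO libraries and 261 and 257 FPKM in the controls (adjusted p = 0.0108). The sum of Rps7 and its copies had a log2 fold change of -0.61 ± 0.15 (SE, adjusted p = 0.104), against -0.04 for the gene alone.

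Rplp0, which forms the base of the stalk that recruits translation factors, overlapped between genotypes, with 1026 and 821 FPKM in the Zeb1-CKO libraries and 1001 and 1070 FPKM in the controls. Its copy Gm8730, on chromosome 8, had 132 and 101 FPKM in the Zeb1-CKO libraries and 4.60 and 5.99 FPKM in the controls (adjusted p = 0.000974). Rps3a1, the gene of a small-subunit protein, had 444 and 311 FPKM in the Zeb1-CKO libraries and 460 and 508 FPKM in the controls. Its genotypes did not overlap, and the log2 fold change was -0.38 ± 0.20 (SE, adjusted p = 0.401), and -0.13 with its copies added. Its copy Rps3a2, on chromosome 14, had 81.9 and 54.9 FPKM in the Zeb1-CKO libraries and 1.37 and 2.96 FPKM in the controls (adjusted p = 0.00283). Both copies had low values in the controls and higher ones in the Zeb1-CKO libraries, where they reached less than their genes. For Rps18, a protein of the small-subunit head, the gene was level, with 123 and 128 FPKM in the Zeb1-CKO libraries and 134 and 120 FPKM in the controls. Its copy Gm11361, which the table types as protein-coding, had 7.93 and 9.10 FPKM in the Zeb1-CKO libraries and 54.4 and 43.3 FPKM in the controls (adjusted p = 0.00306). Another copy, Gm10260, had 81.1 FPKM in control 1 and 0 FPKM in control 2. All 5 copies of Rps18 together had 13.4 and 13.3 FPKM in the Zeb1-CKO libraries and 144 and 48.7 FPKM in the controls. With them added, the log2 fold change was -0.64 ± 0.25 (SE, adjusted p = 0.255), against -0.02 for Rps18 alone.

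**Figure D2:**
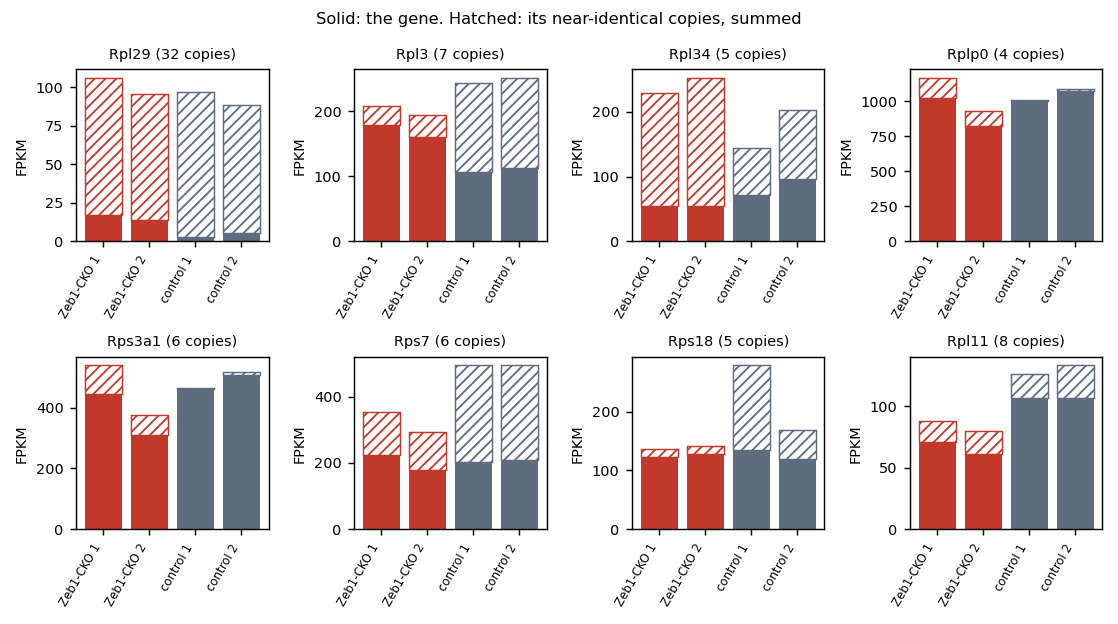
FPKM of 8 ribosomal protein genes in each library, with the gene as the solid part of a bar and its near-identical copies, summed, as the hatched part; Zeb1-CKO libraries are red and controls grey. Rpl29 sits at 17.3 and 14.0 against 2.90 and 5.30 FPKM, but its whole bars differ little, whereas Rpl11, whose copies hold 20.9% of the combined level in Zeb1-CKO cells and 17.9% in control cells, is lower in both Zeb1-CKO libraries with or without them.

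With every member summed with its copies, no member was called, in a fit in which 3.08% of all genes were. Negative log2 fold changes then numbered 66 of 79, and the sign was the other way for 6 members: Rpl3, Rpl34, Rpl37, Rpl37a, Rps2 and Rps13. At an unadjusted p under 0.05, 7 members were lower and 2 higher.

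Rpl11 had a negative difference with and without its copies. Rpl11 and Rpl5 carry the 5S ribosomal RNA into the large subunit, and outside the ribosome they bind and inhibit Mdm2, the ubiquitin ligase of p53. Rpl11 had 71.4 and 61.0 FPKM in the Zeb1-CKO libraries, against 106.6 and 106.6 FPKM in the controls. The genotypes were well apart, with a log2 fold change of -0.68 ± 0.14 (SE) alone and -0.63 ± 0.13 (SE) with 8 copies added, but neither passed the test (adjusted p = 0.0682 and 0.0706). Rpl5 had 75.9 and 79.1 FPKM in the Zeb1-CKO libraries and 76.8 and 71.9 FPKM in the controls, which overlapped.

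Rpl22l1, a paralog of the RNA-binding protein gene Rpl22, had 36.8 and 28.2 FPKM in the Zeb1-CKO libraries and 42.8 and 46.6 FPKM in the controls (adjusted p = 0.240). Its parent Rpl22 overlapped, with 36.0 and 27.4 FPKM in the Zeb1-CKO libraries and 28.4 and 46.6 FPKM in the controls. Rpl7l1, a paralog of Rpl7, stood on the other side, with 24.6 and 25.1 FPKM in the Zeb1-CKO libraries and 18.6 and 18.2 FPKM in the controls (log2 fold change 0.41 ± 0.13 (SE), adjusted p = 0.176). Its copy had under 0.1 FPKM in the mean of each genotype, so the difference was the same with it added, at 0.41. Rpl7 itself overlapped, with 194 and 140 FPKM in the Zeb1-CKO libraries and 163 and 150 FPKM in the controls. Rpl35a, the last of the 4 members with both Zeb1-CKO libraries above both controls, had 22.2 and 21.0 FPKM in the Zeb1-CKO libraries and 12.7 and 19.1 FPKM in the controls, and its log2 fold change was 0.44 alone and 0.02 with its 14 copies.

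The stalk of the large subunit, made of Rplp0 with pairs of Rplp1 and Rplp2, had negative log2 fold changes in all 3 genes, none of which passed. Among all fitted members, 81.0% were negative. The log2 fold change of Rplp0 was -0.17 alone and -0.0042 with its 4 copies added. Rplp1 had 605 and 624 FPKM in the Zeb1-CKO libraries, against 726 and 918 FPKM in the controls. Its genotypes did not overlap (log2 fold change -0.41 ± 0.16 (SE), adjusted p = 0.276). Rplp2 had 44.5 and 36.9 FPKM in the Zeb1-CKO libraries and 36.0 and 63.8 FPKM in the controls, with the controls further apart than the genotypes. The 8 proteins around the exit of the peptide tunnel (Rpl17, Rpl19, Rpl22, Rpl23a, Rpl26, Rpl31, Rpl35 and Rpl39) had negative values in all 8 genes, with a median of -0.24. Of these, 4 had both Zeb1-CKO libraries below both controls, against 44.3% of all fitted members and 22.3% of all fitted genes. Rpl4, which lines the tunnel, was level, with 639 and 492 FPKM in the Zeb1-CKO libraries and 568 and 553 FPKM in the controls. Rpl38, known in mouse for a role in the translation of Hox messages, had 262 and 272 FPKM in the Zeb1-CKO libraries, between the 148 and 374 FPKM of the controls.

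In the small subunit, 28 of 31 genes had a negative log2 fold change, against 47.2% of all fitted genes, and none was called. Both Zeb1-CKO libraries lay below both controls for 15 of them, against 22.3% of all fitted genes. Rps14, whose loss of 1 copy in people marks a form of myelodysplastic syndrome, led with 265 and 325 FPKM in the Zeb1-CKO libraries and 401 and 427 FPKM in the controls. The genotypes were apart, and the log2 fold change was -0.50 ± 0.16 (SE, adjusted p = 0.178), and -0.49 with its 2 copies added. Rps20, of the subunit's head, had 39.1 and 29.9 FPKM in the Zeb1-CKO libraries and 41.8 and 54.9 FPKM in the controls (adjusted p = 0.300). Rps9, a protein near the entry of the messenger RNA, had 140 and 121 FPKM in the Zeb1-CKO libraries and 154 and 173 FPKM in the controls (adjusted p = 0.318). Rps26, near the exit of the messenger RNA, had 150 and 142 FPKM in the Zeb1-CKO libraries and 145 and 232 FPKM in the controls. Of these, Rps20 and Rps9 did not overlap between genotypes, and Rps26 did.

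The 14 genes of the small-subunit head all had negative values, with a median of -0.20, and so did 13 of the 16 other small-subunit genes outside the paralogs, with a median of -0.14. The exceptions were Rps2, Rps6 and Rps21. Rps6, the substrate of S6 kinase, was nearly equal, with 268 and 240 FPKM in the Zeb1-CKO libraries and 250 and 255 FPKM in the controls. Rps2 had 454 and 440 FPKM in the Zeb1-CKO libraries and 475 and 400 FPKM in the controls. Rps21 had 40.7 and 46.3 FPKM in the Zeb1-CKO libraries, between 24.0 and 70.7 FPKM in the controls. Rps27l, a paralog of Rps27 that p53 induces in human cells, had 84.2 and 96.1 FPKM in the Zeb1-CKO libraries and 101 and 100.0 FPKM in the controls (adjusted p = 0.591). Rps27 overlapped, with 293 and 369 FPKM in the Zeb1-CKO libraries and 260 and 449 FPKM in the controls. Rps4l, which the table types as a pseudogene and which is no member, had 44.3 and 38.8 FPKM in the Zeb1-CKO libraries and 68.2 and 46.3 FPKM in the controls, whereas X-linked Rps4x overlapped.

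Large and small subunit did not differ from each other in a way that held across the ways of computing the difference. The median log2 fold change was -0.20 over 48 large-subunit genes and -0.16 over 31 small-subunit genes, a gap of -0.04. Per library, the large-subunit sum was 8199 and 7519 FPKM in the Zeb1-CKO libraries and 8306 and 9683 FPKM in the controls. The small-subunit sum was 5128 and 4899 FPKM in the Zeb1-CKO libraries and 5339 and 6286 FPKM in the controls. The ratio of large to small was 1.60 and 1.53 in the Zeb1-CKO libraries and 1.56 and 1.54 in the controls, so that the genotypes overlapped. Over all the settings tried, the gap between the medians ran from -0.04 to 0.05, on either side of 0. The small-subunit values ranged from -0.50 to 0.07. Rpl3, Rpl11, Rpl29 and Rpl34, all of the large subunit, lay beyond 0.5 in either direction.

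**Figure D3:**
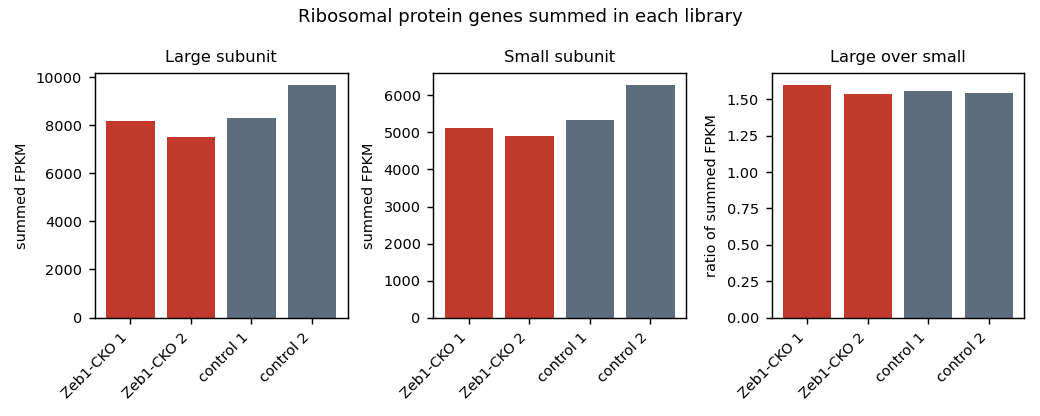
Summed FPKM of the large-subunit genes, of the small-subunit genes, and the ratio of the sums, as 1 bar per library with Zeb1-CKO libraries red and controls grey. Control 2 has the highest sum in both subunits, 9683 and 6286 FPKM, and the ratio stays between 1.53 and 1.60.

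The spread between the controls touched these results most in the shortest genes. Control 2 lay above control 1 for 61 of the 79 members, and in 7 of them by more than 1 on the log2 scale. No member differed as much between the Zeb1-CKO libraries. Rps29, whose small protein sits in the subunit's head, had 307 and 266 FPKM in the Zeb1-CKO libraries, against 173 FPKM in control 1 and 579 FPKM in control 2. The other 6 were Rpl37, Rpl37a, Rpl38, Rpl39, Rps21 and Rps28. All 7 have under 400 coding bases. Among the 26 fitted members that short, the median of control 2 minus control 1 was 0.68, against 0.09 among the 53 longer members. Other protein-coding genes under 400 coding bases had a median of -0.13. Across the 79 members, the difference between the controls was smaller at greater log2 coding length (Pearson's r -0.70, Spearman's rho -0.75), and that between the Zeb1-CKO libraries did so less (r -0.30, rho -0.29), as descriptions across genes that share their libraries. The log2 fold change between genotypes had little relation to coding length (r 0.05, rho 0.07). Control 2 is also the shallowest library, at 0.512 of the deepest against 0.938 for control 1, and the part of depth in this pattern was not tested.

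**Figure D4:**
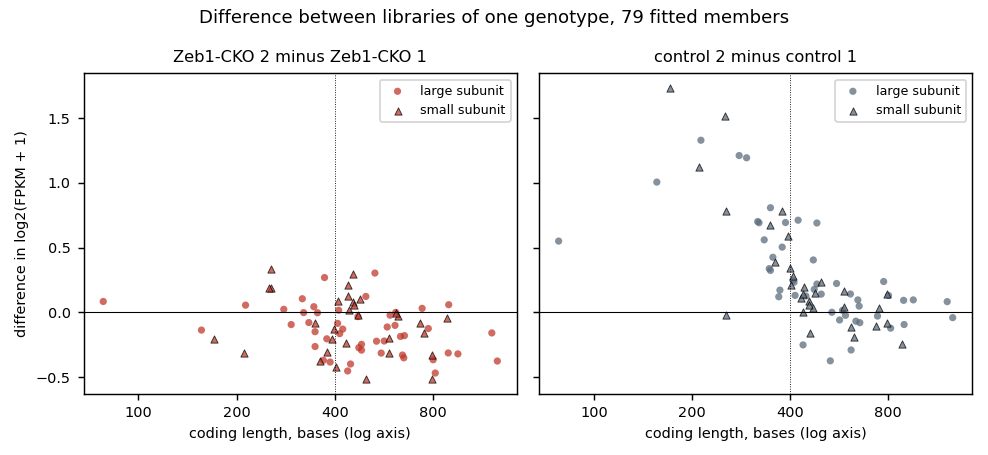
Difference in log2(FPKM + 1) between the libraries of one genotype against coding length on a log axis, for the 79 fitted ribosomal protein genes, Zeb1-CKO on the left and control on the right; circles are large-subunit and triangles small-subunit genes, and the dotted line stands at 400 bases. The controls differ by up to 1.74 in the shortest genes, while the Zeb1-CKO libraries stay within 0.51 of each other at all lengths.

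Mostly negative differences were seen in longer and shorter members. Of the 53 members with at least 400 coding bases, 45 had a negative log2 fold change, with a median of -0.19, and 19 of the 26 shorter ones did, with a median of -0.17. The members with at least 400 coding bases summed to 9831 and 8847 FPKM in the Zeb1-CKO libraries and 10514 and 10822 FPKM in the controls, which did not overlap. The count rested in part on single libraries: 53 of 79 members were negative without control 2, with a median of -0.09, and 57 of 79 without Zeb1-CKO 2, with a median of -0.11. For 43 of the 79 members the gap between the controls was larger than the log2 fold change.

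The ribosomal protein genes outside the name pattern gave a mixed picture. Fau, a fusion gene that yields a ubiquitin-like protein and the small-subunit protein Rps30, had 354 and 388 FPKM in the Zeb1-CKO libraries and 441 and 496 FPKM in the controls. Its genotypes did not overlap, and it did not pass the test (adjusted p = 0.298). Rps27a, a ubiquitin fusion among the members, also did not overlap, with 122 and 120 FPKM in the Zeb1-CKO libraries and 134 and 137 FPKM in the controls, with an adjusted p of 0.573. Rpsa, Rack1, Rpl36al and Rps27rt overlapped, with log2 fold changes of -0.06, -0.08, 0.02 and 0.18.

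The 5′ ends of the genes were read from the RefSeq promoter table (GRCm38.p6), which held 62 of the 82 members. A run of at least 8 C or T bases was sought within 20 bases of each annotated start of a gene. It was present at any of them in 48.4% of the members and in 18.4% of all 27025 genes in the table. The run could lie wholly before the start, and shorter runs were not counted. These shares are thus not shares of messages with the TOP motif. The letters CCGGAAG, the binding sequence of ETS factors, stood on either strand within the 250 bases before and 50 bases after the start in 40.3% of the members and 9.93% of all genes. ATGGCG, part of the motif of the factor YY1, stood in 33.9% of the members and 10.2% of all genes, and TATAAA in 11.3% and 15.7%. The motifs were counted each on its own, whether or not they overlapped, and likewise at any annotated start of a gene. The annotated start nearest to that in the deposited table lay within 3 bases of it for 17 members, of which 4 have such a run there. Shown are 3 of those with a run and, for contrast, Rps28 without one, each from 20 bases before the start to 10 bases from it on, with the run in capitals. In Rpl34 and Rpl13 the run ends before the annotated start, and in Rps27 it spans the start.
Rpl34, chr3:130730389-130730418, minus strand: cgcgccgCCTTCCCTgacgtacttcctgtc
Rpl13, chr8:123102330-123102359, plus strand: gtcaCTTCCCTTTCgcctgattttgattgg
Rps27, chr3:90213639-90213668, minus strand: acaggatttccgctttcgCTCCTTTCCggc
Rps28, chr17:33824553-33824582, minus strand: tcctgggtaccgcgtgcggtctcgcgagag
The 30 fitted members with such a run had a median log2 fold change of -0.20, and the 29 without it -0.15. The medians with and without CCGGAAG were -0.17 and -0.19. They were -0.16 and -0.19 with and without ATGGCG, and -0.06 over the 7 fitted members with TATAAA against -0.19 without it. None of these differences was tested.

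Messages that share the TOP motif but encode no ribosomal protein had a median nearer 0, a difference that was not tested. Of 16 such genes, mostly translation factors, 9 had a negative log2 fold change, none was called, and their median was -0.03. Eef1a1, the factor that brings aminoacyl-tRNA to the ribosome, had 1694 and 1315 FPKM in the Zeb1-CKO libraries and 1176 and 1437 FPKM in the controls. Eef2, which moves the ribosome along, had 346 and 331 FPKM in the Zeb1-CKO libraries and 307 and 355 FPKM in the controls. Both overlapped.

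Genes for building ribosomes had mostly positive differences. Most of the 31 genes on the ribosome biogenesis list make and process ribosomal RNA or assemble the subunits. The list also held the transcription factor genes Myc and Mycn. Of the 31 genes, 27 were on the positive side and 4 on the negative, where 47.2% of all fitted genes stood. Their median log2 fold change was 0.20. Both Zeb1-CKO libraries lay above both controls for 18 of them, and none showed the reverse, against 27.1% and 22.3% of all fitted genes. None was called, and 2 had an unadjusted p under 0.05. The most abundant were Eif6, which keeps new large subunits from joining early, with 45.9 and 52.3 FPKM in the Zeb1-CKO libraries and 46.5 and 44.0 FPKM in the controls, and Sbds, which helps to release it, with 38.4 and 35.3 FPKM in the Zeb1-CKO libraries and 33.3 and 30.6 FPKM in the controls. Eif6 overlapped and Sbds did not.

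Of 14 genes of the mTOR and S6 kinase pathway, 1 was called, as lower, where 0.901% of all fitted genes were. Ddit4, a stress-induced inhibitor of mTOR complex 1, had 17.0 and 18.9 FPKM in the Zeb1-CKO libraries and 31.6 and 32.8 FPKM in the controls (log2 fold change -0.81 ± 0.13 (SE), adjusted p = 0.0411). It was lower in both Zeb1-CKO libraries, and the call was lost without any 1 of the 4 libraries. The 78 mitochondrial ribosomal protein genes had a median of -0.01, with 42 negative and none called. The 76 fitted nuclear genes of the respiratory chain had a median of -0.15, with 61 negative and none called, so that a median of this size was not limited to the cytoplasmic ribosome.

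**Figure D5:**
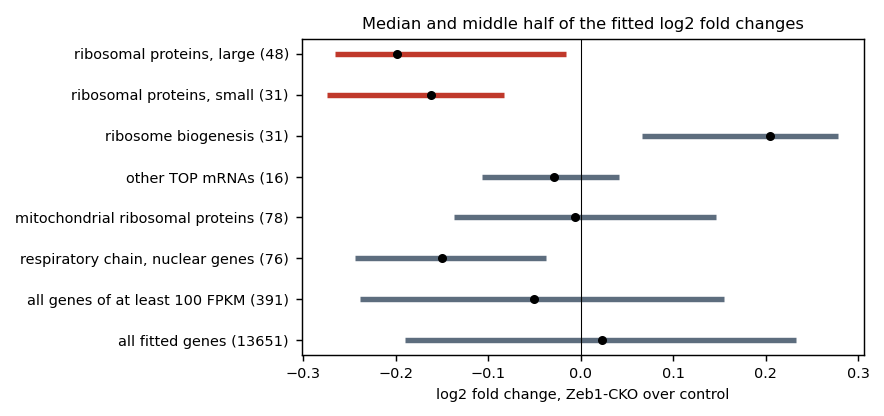
Median (point) and middle 50% (bar) of the fitted log2 fold changes, Zeb1-CKO over control, for the ribosomal protein genes (red) and other gene lists (grey), with the number of fitted genes in brackets. The large and small subunit stand at -0.20 and -0.16, ribosome biogenesis at 0.20, and all fitted genes at 0.02.

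Markers of endothelial and other retinal cells were measured in the same libraries. Endothelial markers were high in all libraries, at 4267 and 4639 FPKM in sum in the Zeb1-CKO libraries and 3759 and 4535 FPKM in the controls. Red cell genes summed to 745 and 1409 FPKM in the Zeb1-CKO libraries and 2727 and 3298 FPKM in the controls, lower in all 5 genes, of which none was called. Pericyte markers summed to 1624 and 1814 FPKM in the Zeb1-CKO libraries and 2332 and 1937 FPKM in the controls, with all 8 genes negative. Smooth muscle markers summed to 249 and 326 FPKM in the Zeb1-CKO libraries and 560 and 419 FPKM in the controls. Of the 5 fitted, 1, Tagln, was called lower, where 0.901% of all fitted genes were. Microglia markers summed to 25.1 and 11.7 FPKM in the Zeb1-CKO libraries and 29.7 and 88.2 FPKM in the controls, with all 8 fitted genes negative. Rod and cone markers summed to 47.0 and 53.5 FPKM in the Zeb1-CKO libraries and 92.2 and 10.3 FPKM in the controls. Müller glia and astrocyte markers summed to 403 and 453 FPKM in the Zeb1-CKO libraries and 360 and 398 FPKM in the controls. At 0 were 1 microglia marker in Zeb1-CKO 1, 1 Müller glia and astrocyte marker in each control and 1 rod and cone marker in control 2. The red cell, pericyte, smooth muscle and microglia sums were thus lower in both Zeb1-CKO libraries than in either control. The same held for 35 of the 79 fitted members, against 22.3% of all fitted genes. The part of these cell types in the members' values was not tested.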

How the data were processed

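The authors deposited FPKM per gene for 4 libraries; its header names no unit, and FPKM is taken from the quantifier and the range of the values. Per the labels' protocols, cDNA was amplified (SMART-Seq v4), sheared, used for NuGEN Ovation libraries and read as 150-base pairs. Trimmomatic 0.36, HISAT2 2.1.0 and StringTie 1.3.3 were used on mm10, per the submitters' processing notes; no source used here gives settings or annotation. The kit does not mark strand, and multi-mapping reads may be split between near-identical genes. FPKM divides by the library total, so changes elsewhere shift all genes.

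Members and gene lists were chosen with earlier results of these data known. Zeb1-CKO and control libraries were compared in R 4.3.3 by limma 3.58.1, applied to log2(FPKM + 1) with a trend of variance on intensity and genotype as the only term, over the 13651 genes averaging 1 FPKM or more, with Benjamini-Hochberg adjusted p under 0.05. Fold changes on this scale understate the change of low genes. Count tests were left out because FPKM are not counts. No gene list was given a p. The test was checked on simulated data. Depth is known only in relative terms, from the steps between low FPKM values, of which 30.8% to 36.3% came within 0.05 of a whole number of steps, where 10% would by chance. Coding lengths, gene spans and transcripts came from GENCODE M21, where 54409 gene identifiers matched without their version; near-identical copies were found with BLAST 2.17.0. Summing copies with members, the crossed block and the restriction to at least 400 coding bases were added after seeing the data.

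The members named are the called one, the 5 highest and 5 lowest log2 fold changes of each subunit among genes averaging 5 FPKM or more, the 3 most abundant of each subunit, the stalk, 5S and ubiquitin-fusion proteins, Rps6, and the paralogs with their parents, some parents in the closing section alone; some genes under this rule are not reported here. From other lists, the called or most abundant genes were taken; those of the marker and mitochondrial lists are left out except Tagln. Rps29 and the other members with distant controls, Rps18's and other copies, and the shown starts were chosen after their values were seen. Of the 4 RNA quality genes none was called, with log2 fold changes of -0.23 for Actb, 0.33 for Neat1 and 0.50 for Gapdh, whose genotypes did not overlap, and -0.16 for Malat1, whose genotypes did. The 4 X-linked members had a median of -0.04. Figures used matplotlib 3.10.9 in Python 3.11.15.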

Additional observations from a re-analysis of the deposited data

How the results depend on the processing

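With 2 libraries per genotype and FPKM in place of counts, small differences cannot be told from the spread between libraries, and leaving out a library leaves a lone sample that is assumed to vary like the others. Of all settings run, only the crossed replicate block called members lower, 1 in all, and no member other than Rpl29 was called higher. The call for Rpl29 was lost, and 0 members were called higher, with no filter, with a mean of at least 100 FPKM (where Rpl29 was not fitted), with the replicate block (adjusted p = 0.0660) and with copies summed (adjusted p = 0.697; 0.0124 to 0.697 in all). Without each library in turn, 0 to 1 members were called higher.

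Over all genes, 304 were called higher and 123 lower. With no filter these were 70 and 15, with a mean of at least 100 FPKM 12 and 11, and with the replicate block 155 and 38; a mean of at least 5 FPKM gave 169 higher. Without single libraries they were 44 to 224 higher and 15 to 59 lower. Same-numbered libraries did not deviate together (r = -0.12 over 13651 genes). With a single difference per genotype, this cannot settle whether the replicate numbers pair the libraries. The crossed pairing gave 306 and 149 calls.

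The small-subunit median of -0.16 was -0.22 with a mean of at least 100 FPKM, -0.21 with libraries scaled to the same median, and -0.34 to -0.10 without single libraries; the large-subunit median was -0.32 to -0.08 over all settings. The gap between them kept within the spread between libraries throughout. Members with a negative value numbered 62 to 70 of 79 over the 4 scalings.

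Of the named genes, all 41 values of the other sign belong to genes that were not called. With libraries scaled to the same median, the log2 fold change was -0.052 for Rpl4, -0.047 for Rps6, -0.018 for Rps2, -0.029 for Rpl36al and -0.015 for Eef2. Quantile normalization gave 0.12 for Rplp0, 0.0048 for Rps18, 0.031 for Rps27 and -0.031 for Rpl36al. Scaling to equal library sums gave 0.013 for Rps18 and 0.011 for Rpl39, and scaling to equal sums over non-members gave 0.0049 and 0.00098. Copies summed gave 0.49 for Rpl34, -0.30 for Rpl3 and -0.086 for Rps2. Without single libraries, the ranges were -0.49 to 0.84 for Rpl38, -0.19 to 0.19 for Rpl4, -0.67 to 0.0062 for Rps26, -0.20 to 0.11 for Rps7, -0.098 to 0.061 for Rps18, -0.074 to 0.086 for Rps6, -0.088 to 0.16 for Rps2, -0.69 to 0.83 for Rps21, -0.64 to 0.17 for Rplp2, -0.16 to 0.31 for Rpl7, -0.23 to 0.10 for Rpl10, -0.56 to 0.14 for Rpl22, -0.53 to 0.48 for Rpl39, -0.31 to 0.018 for Rps4x, -0.45 to 0.34 for Rps27, -0.18 to 0.024 for Rack1, -0.046 to 0.091 for Rpl36al, -0.33 to 0.69 for Rps27rt and -0.066 to 0.14 for Eef2. The cause was not tested.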
